A study of Mus musculus with 12 samples.

Results

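Transcript levels of 9 integrin and niche adhesion genes were examined in leukemic stem and progenitor cells from mice with a CML-like disease. The genes are the integrin alpha subunits Itga4, Itga5, Itga6, Itgal and Itgam, the beta subunits Itgb1, Itgb2 and Itgb3, and Selplg, which encodes the selectin ligand PSGL-1. They were taken as a named list of 9 genes out of the 46102 genes in the deposited tables, and none of the 9 had numbered copies to sum.

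Integrins are receptors made of an alpha and a beta chain, and the chains must pair before they reach the cell surface. On blood stem and progenitor cells, integrins bind proteins of the marrow niche and of vessel walls, such as VCAM-1, fibronectin, laminins and ICAMs. PSGL-1 carries the sugars by which selectins slow rolling cells on the endothelium, a step that precedes integrin-mediated arrest and entry into the marrow.

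The cells came from C57BL/6 mice that were lethally irradiated and transplanted with bone marrow of 5FU-treated G0M mice, after infection of that marrow with a retrovirus carrying human BCR-ABL1 and GFP. G0M is a fluorescent marker of quiescent cells at the Rosa26 locus that Vav1-Cre, active across the blood lineage, switches on. All 4 groups were sorted as BCR-ABL1+CD27+ cells of the lineage-negative, Sca1+, c-Kit+ (KSL) fraction from bone marrow and spleen, at 100 cells per library and 3 libraries per group. DP cells were G0M+ (named CML stem cells in the labels) and SP cells G0M- (progenitor cells), both from vehicle-treated mice. IMDP and IMSP cells were their counterparts from mice given 40 mg/kg imatinib, the inhibitor of the ABL kinase, once daily from day 10 after transplantation. The mice were female and 6 to 12 weeks old. Whether replicate libraries came from separate mice is not given in the sources used here, so p-values measure the spread between these libraries, which may be technical.

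Values are RPKM, read counts scaled to transcript length and library total, so levels of different genes can be set side by side. Each library rested on 11.4 to 20.6 M reads, of which 25.9% to 37.1% fell on listed features. Library numbers of all imatinib libraries were lower (1 to 6) than those of the vehicle libraries (7 to 12), so treatment and library number cannot be told apart. Mki67, a gene of cycling cells, fell in DP against SP (log2 fold change -1.94) and likewise in IMDP against IMSP (-2.90), with limma adjusted p-values of 0.00263 and 3.6e-05. Kit (16.8 to 39.8 RPKM) and Cd27 (12.2 to 21.4 RPKM), both used in the sort, were present in all 12 libraries. Ly6a, which encodes the sort marker Sca1, ranged from 3.12 to 20.8 RPKM and was higher in G0M+ libraries (1.42, limma adjusted p = 0.00544). In a pool of cells, fewer cells that express a gene and less of its RNA per cell cannot be told apart.

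All 9 genes passed the filter of at least 1 RPKM in at least 3 libraries. Itgam reached 1 RPKM in 8 libraries and the other 8 genes did so in all 12. By median over the 12 libraries, the order of levels was Itgb1 (19.6 RPKM), Selplg (19.3), Itga4 (15.8), Itgal (13.5), Itga6 (10.2), Itgb2 (6.64), Itga5 (5.69), Itgb3 (4.00) and Itgam (1.19). Neighbours in this order overlapped between libraries in every case. For comparison, the median level of the 10072 genes tested was 4.49 RPKM. The highest library exceeded the lowest by 1.48 times for Itgb1 and by 1.49 times for Itga5, but by 17.1 times for Itgb3, 6.93 times for Itgam and 5.25 times for Itgal. Between 28 reads (Itgam in SP replicate 3) and 3208 reads (Itga4 in SP replicate 1) stood behind each value.

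**Figure D1:**
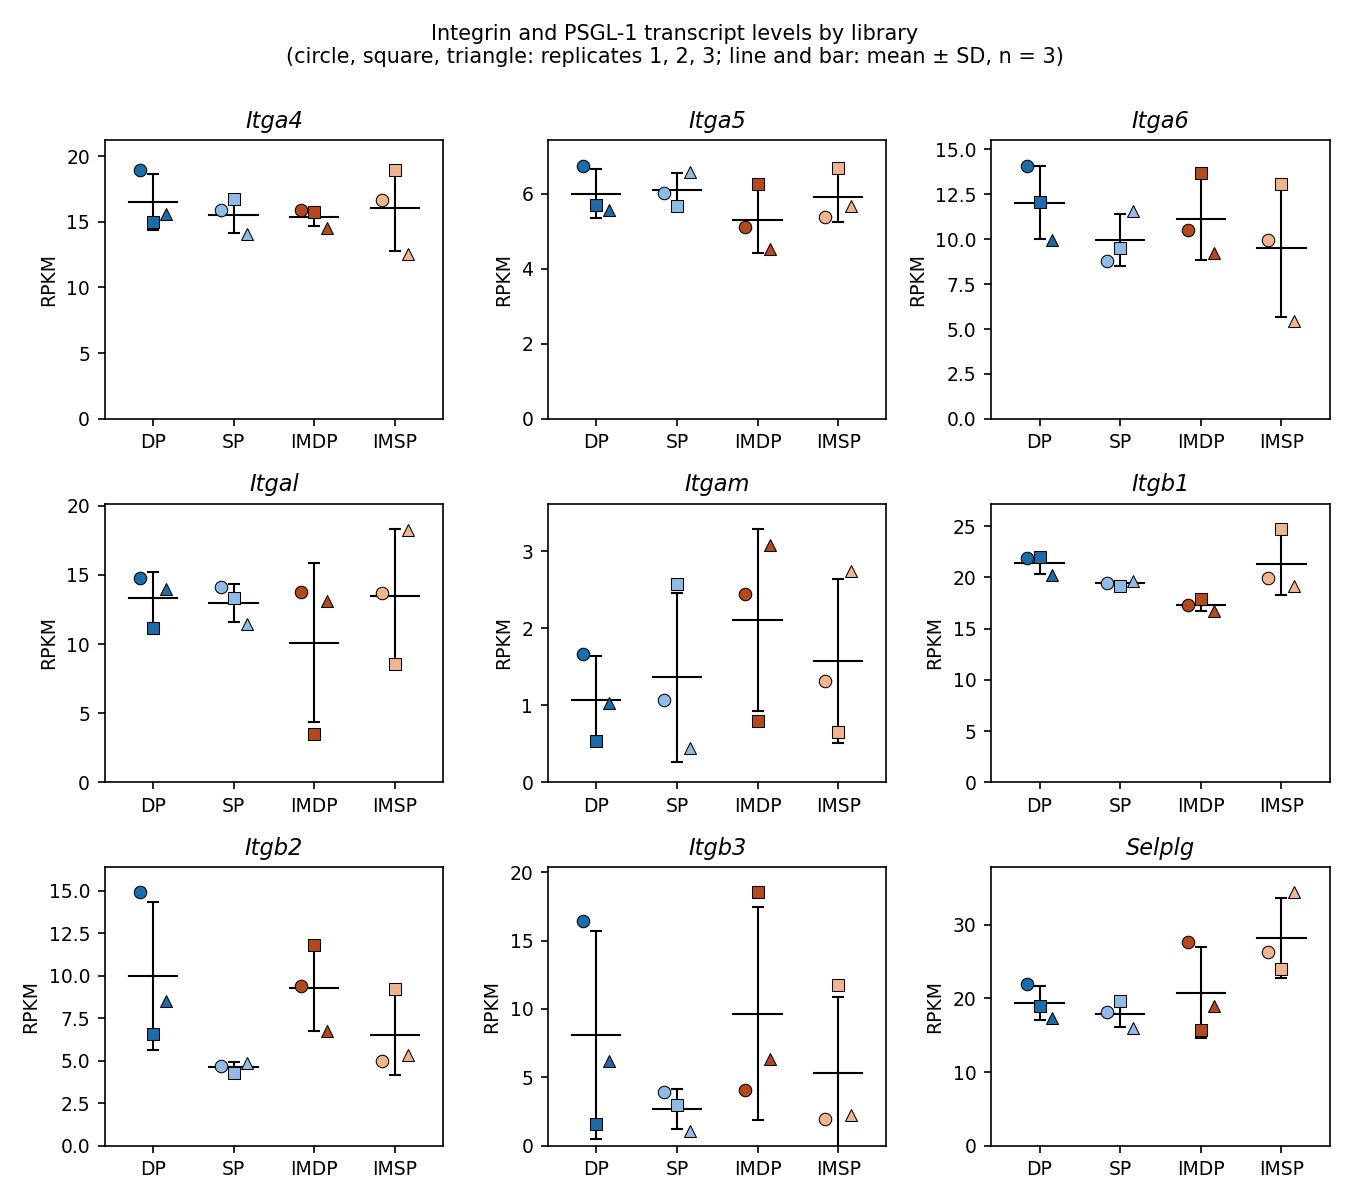
RPKM of each gene in the 12 libraries by group, with replicates 1, 2 and 3 as circle, square and triangle and the mean ± SD (n = 3) as line and bar, cut at 0 for Itgb3 in IMSP. Itgb1, Itga4 and Itga5 varied little between libraries, all 3 SP libraries of Itgb2 lay between 4.28 and 4.84 RPKM, and Itgb3 reached 16.4, 18.5 and 11.7 RPKM in DP replicate 1, IMDP replicate 2 and IMSP replicate 2.

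In the fit of all 12 libraries without a block for pairs of libraries, only Itgb2 of the 9 genes passed in any of the 7 contrasts. It did so only in the contrast of G0M+ with G0M- libraries averaged over treatments, where it rose. In that contrast 26.3% of all genes tested passed, and 5.32% passed and were higher in G0M+ cells. In DP against SP none of the 9 passed an adjusted p of 0.05 in limma (1 at an unadjusted p under 0.05), where 2.26% of all genes did. In IMDP against IMSP again none passed (2 unadjusted), against 25.6% of all genes, and the median log2 fold change was -0.04 over the 9 genes and -0.25 over all genes. With pairs of neighbouring library numbers as a block, 4 of 9 passed in IMDP against IMSP, beside 44.1% of all genes. Under that block 1 of 9 passed in DP against SP and 2 of 9 in G0M+ against G0M-, beside 9.73% and 46.9%. Values in a contrast whose all-gene median lay over 0.1 from 0 are to be read against that median. The all-gene median was -0.17 in IMDP against DP, -0.13 in G0M+ against G0M- and -0.25 in the interaction of population and treatment.

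The treatment contrasts gave no calls either. In IMDP against DP, 0 of 9 genes passed in limma (1 unadjusted), beside 0.367% of all genes. In IMSP against SP 0 of 9 passed (1 unadjusted), beside 0% of all genes. For imatinib against vehicle averaged over both populations the count was 0 of 9 (1 unadjusted) beside 0.854%, and for the interaction 0 of 9 (1 unadjusted) beside 0%. A test with limma-voom on the reads recovered from the RPKM steps called Itgb2 in the same contrast and none of the other genes in any contrast.

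**Figure D2:**
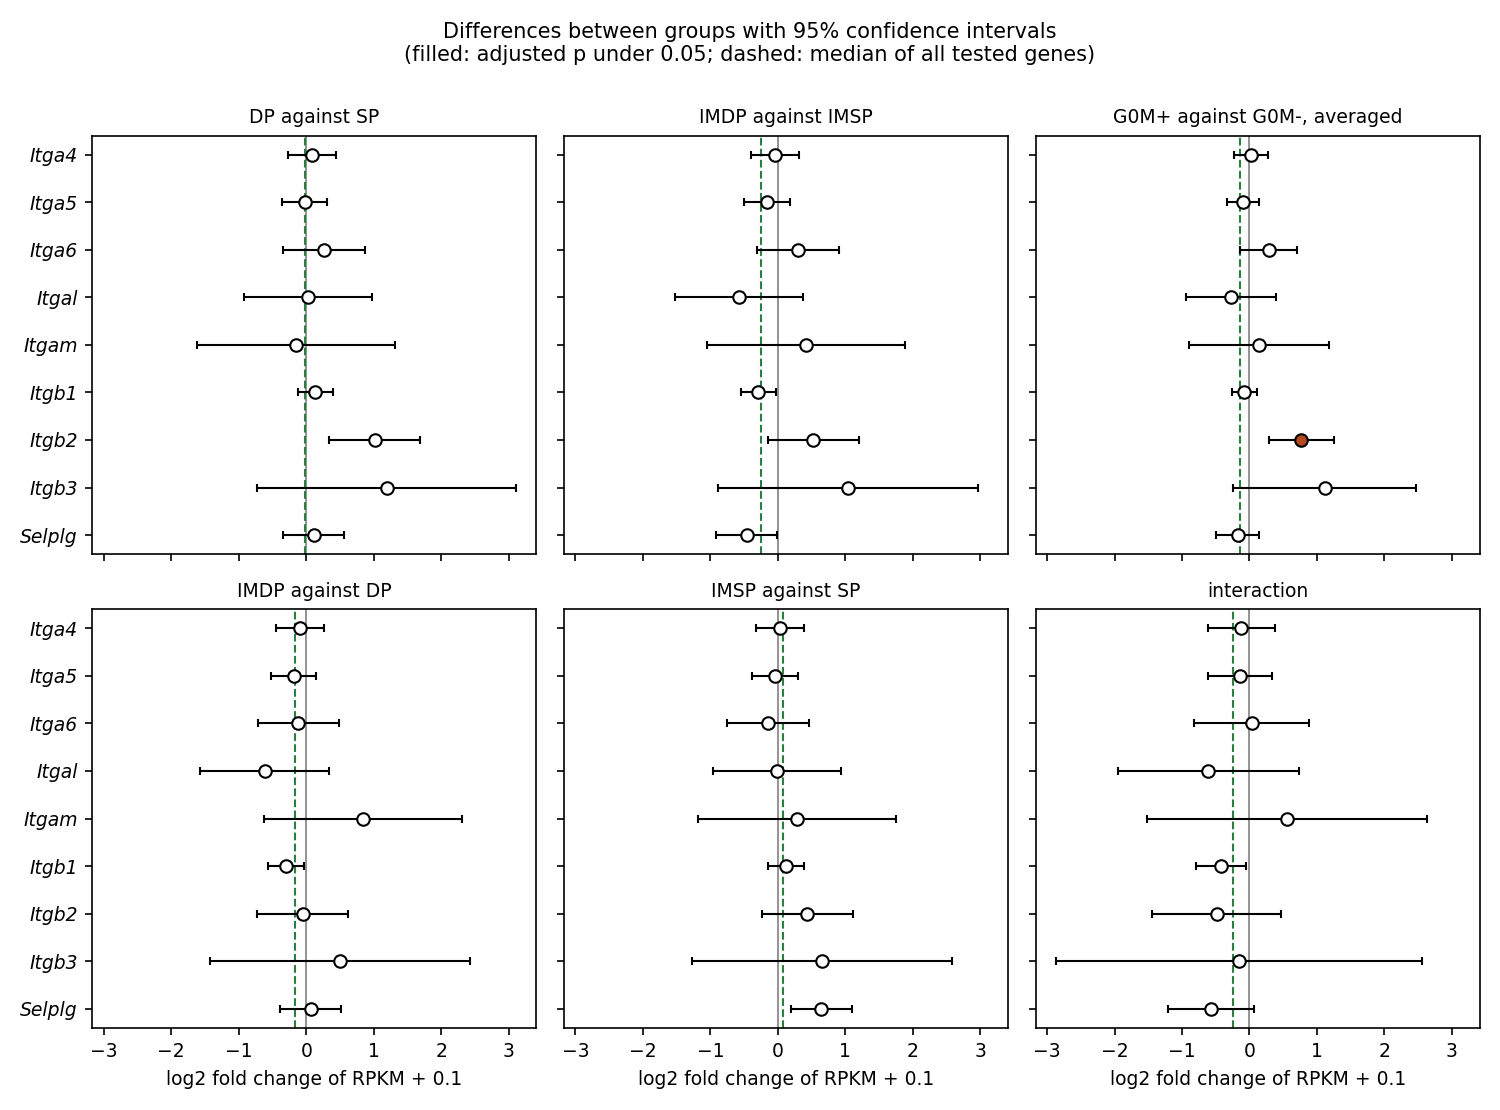
Log2 fold change of RPKM + 0.1 (x axis) for each gene (y axis) in 6 contrasts, with 95% confidence intervals from limma, where filled points passed an adjusted p of 0.05 and the dashed line is the median of all genes tested. Itgb2 in G0M+ against G0M- libraries (0.77) is the only filled point, and the intervals of Itgb3 and Itgam are the widest.

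Itga4 (chr2:79255426-79333123, GRCm38, plus strand) encodes the alpha4 chain, which with beta1 forms VLA-4, the receptor for VCAM-1 and fibronectin. It had 19.0, 14.97 and 15.6 RPKM in DP replicates 1, 2 and 3, and 15.9, 16.7 and 14.0 in SP. In IMDP it had 15.9, 15.7 and 14.5 RPKM, and in IMSP 16.7, 18.9 and 12.5. All 4 groups overlapped. In DP against SP its log2 fold change was 0.08 (95% confidence interval -0.27 to 0.43) and in G0M+ against G0M- it was 0.02 (-0.23 to 0.27, or 0.16 against the all-gene median), so a 2-fold difference lies outside both intervals.

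Itga5 (chr15:103344286-103366763, minus strand) encodes the alpha5 chain of the fibronectin receptor alpha5beta1. Its levels ran from 5.56 to 6.76 RPKM in DP, 5.67 to 6.58 in SP, 4.54 to 6.26 in IMDP and 5.40 to 6.69 in IMSP. The groups overlapped throughout, and the log2 fold change in G0M+ against G0M- was -0.09 (-0.33 to 0.14, or 0.04 against the all-gene median). Itga4 and Itga5 differed little from library to library, at 1.51 and 1.49 times between lowest and highest.

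Itga6 (chr2:71745616-71858416, plus strand) encodes the alpha6 chain, part of laminin receptors and a surface marker of stem cells in several tissues. It had 14.1, 12.1 and 9.97 RPKM in DP, and 8.77, 9.53 and 11.6 in SP. In IMDP it had 10.5, 13.7 and 9.21 RPKM, and in IMSP 9.96, 13.1 and 5.44. The groups overlapped, but within each of the 6 pairs of libraries with neighbouring numbers, 3 per treatment, the G0M+ library was the higher, by 0.06 to 0.75 on the log2 scale. The log2 fold change in G0M+ against G0M- was 0.28 (SE 0.20, limma adjusted p = 0.295). Set against the all-gene median it was 0.42.

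Itgb1 (chr8:128685654-128733200, plus strand) encodes the beta1 chain, the partner of alpha4, alpha5 and alpha6, and was the most abundant of the 9 by median. DP had 21.9, 22.0 and 20.2 RPKM and SP 19.5, 19.2 and 19.6, so each DP library lay above each SP library. IMDP had 17.4, 17.9 and 16.7 RPKM and IMSP 19.96, 24.7 and 19.2, so the order of the groups was the opposite. Its log2 fold changes were small, 0.14 for DP over SP (limma adjusted p = 0.641) and -0.29 for IMDP over IMSP (SE 0.12, limma adjusted p = 0.0981). Relative to the all-gene median the latter was -0.03. IMDP also lay below DP without overlap (-0.30, or -0.13 relative to the median, limma adjusted p = 0.195).

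Itgal (chr7:127296260-127335138, plus strand) encodes CD11a, the alpha chain of LFA-1, which binds ICAMs. It had 14.8, 11.2 and 14.0 RPKM in DP, and 14.1, 13.4 and 11.5 in SP. In IMDP it had 13.8, 3.47 and 13.1 RPKM, and in IMSP 13.7, 8.53 and 18.2. Replicate 2 was thus the lowest library in both imatinib groups, and IMDP replicate 2 the lowest of all 12. The log2 fold change of -0.58 in IMDP against IMSP (SE 0.44, limma adjusted p = 0.340) was -0.33 relative to the all-gene median, and without the replicate 2 libraries of both imatinib groups it was -0.23 (limma adjusted p = 0.430).

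Itgam (chr7:128062640-128118491, plus strand) encodes CD11b, the alpha chain of the myeloid integrin Mac-1. Cells with CD11b on the surface were gated out by the lineage antibodies in every group, so its level is set in part by the sort. It was the lowest of the 9, at 0.532 to 1.66 RPKM in DP, 0.444 to 2.57 in SP, 0.790 to 3.08 in IMDP and 0.658 to 2.74 in IMSP. In each group the highest library stood more than 3 times above the lowest. The log2 fold change of -0.15 for DP over SP therefore had an interval of -1.61 to 1.32, and a 2-fold change either way lies within it.

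Itgb2 (chr10:77530252-77565708, plus strand) encodes CD18, the beta chain that Itgal and Itgam products share. DP had 14.9, 6.55 and 8.48 RPKM and SP 4.70, 4.28 and 4.84, and the groups did not overlap. IMDP had 9.37, 11.8 and 6.73 RPKM and IMSP 4.98, 9.19 and 5.36, with IMSP replicate 2 inside the range of IMDP. Within all 6 pairs of neighbouring libraries the G0M+ library was the higher, by 0.32 to 1.78 on the log2 scale. Of the 9 genes, 3 (Itga6, Itgb2 and Itgb3) were higher in G0M+ in all 6 pairs, as were 11.3% of all genes tested.

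Averaged over treatments, Itgb2 rose 1.71-fold in G0M+ cells (log2 fold change 0.77, SE 0.22, 95% confidence interval 0.29 to 1.25, limma adjusted p = 0.0248). Set against the all-gene median, this rise came to 0.91. Within vehicle the log2 fold change was 1.01 (DP over SP, 2.02-fold, SE 0.31, limma adjusted p = 0.152). Within imatinib it was 0.53 (IMDP over IMSP, 1.44-fold, limma adjusted p = 0.223), or 0.78 against the all-gene median. The difference between these 2 values was -0.49 (limma adjusted p = 0.706). When the pairs of neighbouring libraries were fitted as a block, DP against SP passed as well (limma adjusted p = 0.0272). IMDP against IMSP did not pass under that block (limma adjusted p = 0.0891). The averaged call was lost when SP replicate 2 (adjusted p = 0.0550), IMDP replicate 2 (0.0603), IMSP replicate 1 (0.0669) or IMSP replicate 3 (0.0508) was left out of the limma fit, with log2 fold changes of 0.68 to 0.75, and was kept in the other 8 of 12 such fits.

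**Figure D3:**
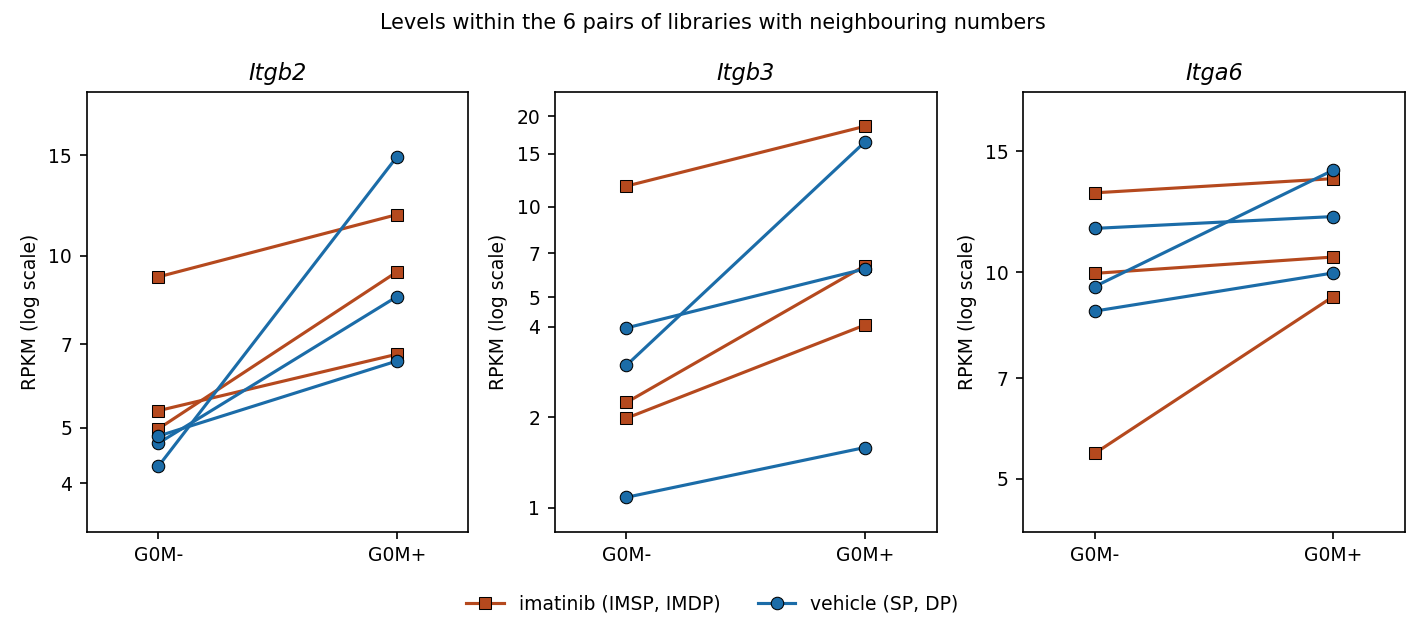
RPKM (log scale) of Itgb2, Itgb3 and Itga6 in the G0M- and G0M+ library of each of the 6 pairs with neighbouring library numbers, vehicle pairs as circles and imatinib pairs as squares. All lines rise to the right, by 0.32 to 1.78 (Itgb2), 0.51 to 2.43 (Itgb3) and 0.06 to 0.75 (Itga6) on the log2 scale.

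Itgb3 (chr11:104608000-104670476, plus strand) encodes CD61, the beta chain of the platelet fibrinogen receptor with Itga2b and of the vitronectin receptor with Itgav. DP had 16.4, 1.58 and 6.22 RPKM and SP 3.96, 2.97 and 1.08. IMDP had 4.05, 18.5 and 6.37 RPKM and IMSP 1.98, 11.7 and 2.24. Libraries within DP, IMDP and IMSP spanned wider ranges than any distance between the group means of 8.08, 2.67, 9.64 and 5.31 RPKM. Averaged over treatments the log2 fold change in G0M+ against G0M- was 1.12 (2.17-fold, SE 0.62, limma adjusted p = 0.195), or 1.25 against the all-gene median. Within pairs, the G0M+ library was the higher by 0.51 to 2.43 on the log2 scale in 6 of 6 pairs. With the neighbouring pairs as a block, Itgb3 passed in this contrast (limma adjusted p = 0.00424), where 46.9% of all genes then passed. Under that block it also passed for IMDP over IMSP (limma adjusted p = 0.0288), but not for DP over SP (limma adjusted p = 0.0518). Without the block, its log2 fold change of 1.04 for IMDP over IMSP ran from 0.42 to 1.85 when single libraries were left out.

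Levels of cell type markers were summed per library beside Itgb3. The 10 megakaryocyte and platelet markers (Pf4, Vwf and others, without integrins) summed to 119, 11.4 and 42.6 RPKM in DP and to 34.0, 3.73 and 9.30 in SP. They summed to 11.2, 104 and 8.91 RPKM in IMDP and to 6.32, 40.1 and 4.99 in IMSP. The 2 libraries with the highest Itgb3 level, IMDP replicate 2 and DP replicate 1, also had the 2 highest sums of these markers, and 2 of the 10 were at 0 throughout IMSP and none throughout the other groups. Of the 7 such markers tested, 1 (Ppbp) rose in G0M+ against G0M- and none passed in another contrast (limma), and the Ppbp call was lost with limma-voom (adjusted p = 0.271). Ppbp reached 1 RPKM only in G0M+ libraries, so the filter admitted it through the group where it was high. The part of these markers in the Itgb3 level was not tested.

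**Figure D4:**
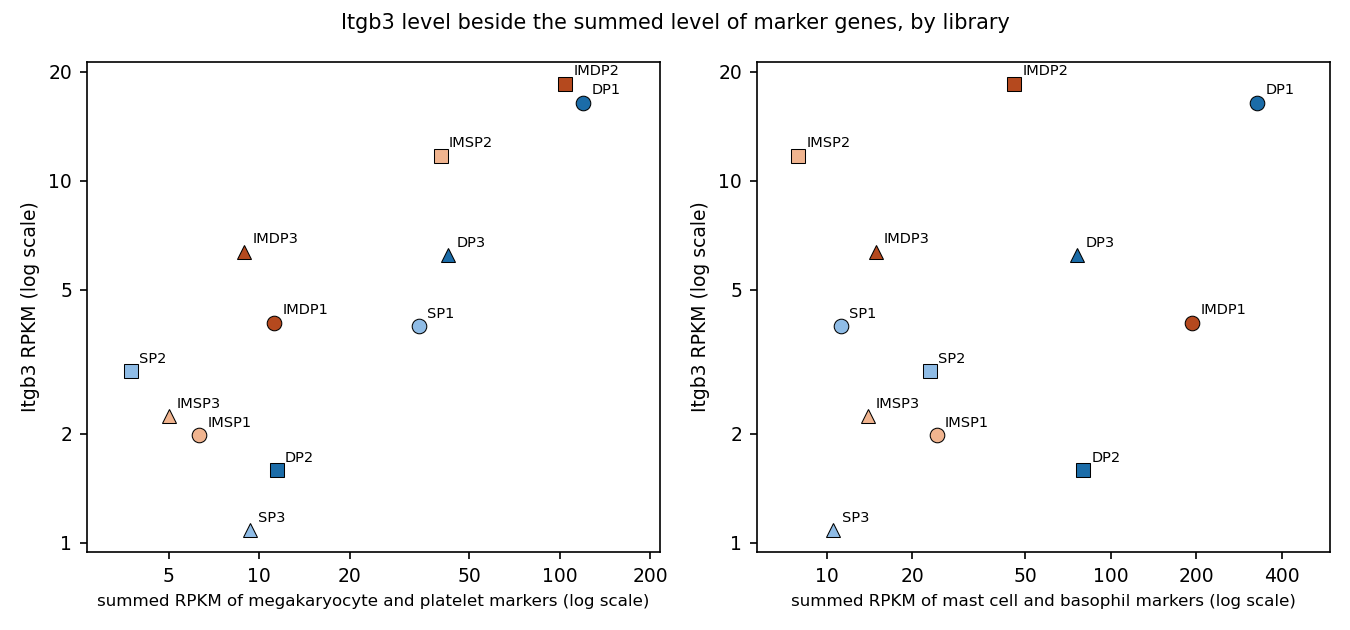
Itgb3 RPKM against the summed RPKM of 10 megakaryocyte and platelet markers (left) and 10 mast cell and basophil markers (right) in each library, both axes on a log scale. DP replicate 1 and IMDP replicate 2 are highest on both axes of the left panel, and DP libraries lie at 76.3 to 329 RPKM on the x axis of the right panel against 10.5 to 23.0 for SP.

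Summed mast cell and basophil markers and summed erythroid markers were, like Itgb2, higher in each DP than in each SP library. For 22.4% of all genes the DP and SP libraries did not overlap. The mast cell and basophil markers summed to 76.3 to 329 RPKM in DP and 10.5 to 23.0 in SP. In IMDP they summed to 14.9 to 194 RPKM and in IMSP to 7.92 to 24.4. Of the 10, 1 was at 0 throughout DP and 4 throughout SP. Of the 7 such markers tested, 4 rose in G0M+ against G0M-, 2 in DP against SP and 1 (Prss34) in IMDP against IMSP. Of all genes, 5.32% passed and rose in G0M+ against G0M-, and 2.26% and 25.6% passed in the other 2 contrasts. Cma1 and Prss34 reached 1 RPKM only in G0M+ libraries, so the filter admitted them through the group where they were high. With limma-voom the G0M+ calls of Cma1, Prss34 and Fcer1a were lost (adjusted p = 0.0626, 0.206 and 0.236). The DP against SP calls of Cma1 and Prss34 (adjusted p = 0.220 and 0.518) were lost too. So was that of Prss34 in IMDP against IMSP (adjusted p = 0.486). The erythroid markers summed to 264 to 308 RPKM in DP, 73.9 to 179 in SP, 88.4 to 544 in IMDP and 23.2 to 129 in IMSP. Monocyte and macrophage markers summed to 5.54 to 13.8 RPKM in DP, 3.65 to 15.04 in SP, 13.8 to 20.7 in IMDP and 10.8 to 66.3 in IMSP. Of these lists, 1 of 8 tested erythroid and 2 of 5 tested monocyte and macrophage markers rose in G0M+ against G0M-, and 1 of the latter, Adgre1, was lost with limma-voom (adjusted p = 0.0786). In IMDP against IMSP, 1 erythroid marker (Hbb-bt) and 1 monocyte and macrophage marker (C1qc) rose (limma adjusted p = 0.0361 and 0.00829). Both passed with limma-voom (adjusted p = 0.0255 and 0.00332). C1qc reached 1 RPKM only in G0M+ libraries. Neutrophil markers (5.47 to 58.5 RPKM), lymphoid markers (29.5 to 267) and endothelial and stromal markers (7.20 to 27.6) overlapped between the populations of each treatment, and none of these 3 lists had a gene past the test. Cells with Ter119, CD11b, Gr-1, CD5 or B220 on the surface, and cells without CD27, were gated out of all 4 groups. The part of these cell types in the Itgb2 difference was not tested.

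Selplg (chr5:113818536-113832644, minus strand) encodes PSGL-1. It had 21.9, 18.9 and 17.3 RPKM in DP, and 18.2, 19.6 and 16.0 in SP. In IMDP it had 27.7, 15.7 and 19.0 RPKM, and in IMSP 26.3, 24.1 and 34.4. Each IMSP library lay above each SP library, with a log2 fold change of 0.64 (1.56-fold, unadjusted p = 0.00924 and adjusted p = 0.465 in limma). IMDP overlapped both DP (0.07, -0.38 to 0.52) and IMSP. In IMDP against IMSP the log2 fold change was -0.46, or -0.21 relative to the all-gene median (limma adjusted p = 0.117). Without IMDP replicate 1, the highest of its group, it was -0.69 and passed (limma adjusted p = 0.0173). In that fit 2962 of 10072 genes passed and the all-gene median was -0.31.

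In DP against SP, 2 of 9 (Itgb1 and Itgb2) did not overlap, beside 22.4% of all genes. In IMDP against IMSP 1 of 9 (Itgb1) did not overlap, beside 39%. In IMDP against DP it was 1 of 9 (Itgb1) beside 23.6%, and in IMSP against SP 2 of 9 (Itgb2 and Selplg) beside 13.8%.

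The fit with neighbouring libraries as a block raised the number of calls, among the 9 genes as among all genes. In IMDP against IMSP it called 4 of 9, namely Itgb3 (1.04), Itgal (-0.58, limma adjusted p = 0.0412), Itgb1 (-0.29, limma adjusted p = 0.0450) and Selplg (-0.46, limma adjusted p = 0.0444), where 44.1% of all genes passed. The calls of Itgal, Itgb1 and Selplg as lower in IMDP did not take the all-gene median of -0.25 into account. Set against that median, their log2 fold changes were -0.33, -0.03 and -0.21, so Itgb1 lay close to it. After shifting libraries to a common median, without the block, none of these genes passed (limma adjusted p = 0.640 for Itgal, 0.934 for Itgb1 and 0.505 for Selplg). In DP against SP the fit with that block called 1 of 9 (Itgb2), where 9.73% of all genes passed.

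Because integrin chains act as pairs, RPKM sums of partner chains were set against each other within each library, as a description with no test. The 3 alpha chains Itga4, Itga5 and Itga6 together stood at 1.23 to 2.00 times the level of Itgb1, with a median of 1.62 over the 12 libraries. By group this ratio was 1.49 to 1.81 in DP, 1.57 to 1.66 in SP, 1.69 to 2.00 in IMDP and 1.23 to 1.60 in IMSP. Itgal stood at 0.992 to 1.70 times the level of Itgb2 in DP and at 2.37 to 3.12 times in SP. The DP and SP ranges of that ratio did not overlap. In IMDP it was 0.294 to 1.95 and in IMSP 0.929 to 3.40. The ratio of Itga2b and Itgav together to Itgb3 ran from 1.23 to 20.5, the widest of these ranges.

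**Figure D5:**
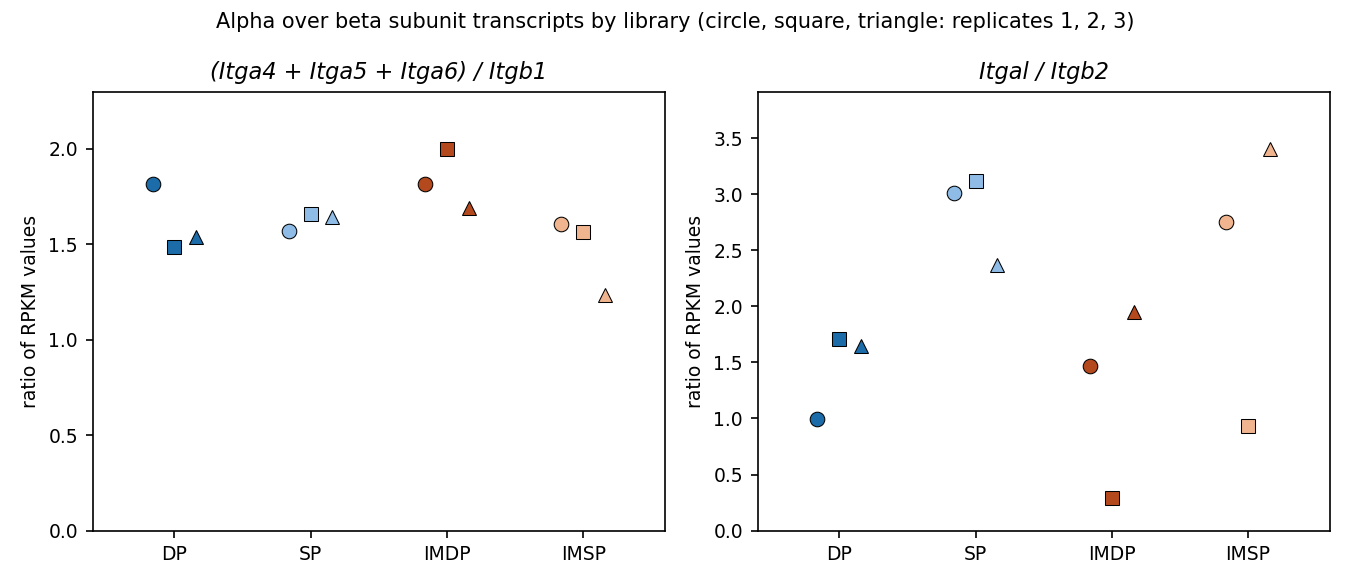
Ratio of alpha over beta subunit RPKM in each library, for Itga4, Itga5 and Itga6 together over Itgb1 (left) and for Itgal over Itgb2 (right), with replicates 1, 2 and 3 as circle, square and triangle. The left ratio stays between 1.23 and 2.00 in all libraries, and on the right the 3 DP libraries (0.992 to 1.70) lie below the 3 SP libraries (2.37 to 3.12).

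Of the 18 other integrin subunits, 5 were tested and Itgb8 was listed at 0 in all libraries. In G0M+ against G0M-, 2 of the 5 rose, where 5.32% of all genes did. Itga9, 1 of these 2, reached 1 RPKM only in G0M+ libraries, so the filter admitted it through the group where it was high. None of the 5 passed in another contrast in the limma fit of all 12 libraries without block or common median. With neighbouring libraries as a block, Itgb7 also passed in DP against SP (limma adjusted p = 0.0346). Itga9, whose product pairs with beta1, rose with a log2 fold change of 1.57 (limma adjusted p = 0.0330). For IMDP over IMSP its log2 fold change was 1.98, with an adjusted p of 0.0516 in limma, 0.0471 with limma-voom, 0.0449 after shifting libraries to a common median and 0.00582 with neighbouring libraries as a block. Its level was low, at 0.385 to 1.92 RPKM in DP, 0.0726 to 0.679 in SP, 0.856 to 1.46 in IMDP and 0.148 to 0.361 in IMSP. Itgb7, the other beta partner of alpha4, rose by 0.98 (limma adjusted p = 0.0454), with 4.05 to 7.17 RPKM in DP against 1.35 to 2.41 in SP, and 2.26 to 9.03 in IMDP against 1.96 to 5.25 in IMSP. Itga2b, the platelet partner of beta3, ranged from 3.75 to 20.8 RPKM and did not pass in any contrast.

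Counts in this and the following gene lists are to be read beside the 26.3% and 25.6% of all genes that passed in G0M+ against G0M- and in IMDP against IMSP. Of 19 tested adaptors that bind integrin tails or activate them, such as talin and kindlin genes, none rose, 1 fell in G0M+ against G0M- and 2 fell in IMDP against IMSP. Apbb1ip, which encodes RIAM, a link from Rap1 to talin, fell by 0.39 and 0.55 in these contrasts (limma adjusted p = 0.0287 and 0.0285). Rap1b, a small GTPase that activates integrins, fell by 0.49 in IMDP against IMSP (limma adjusted p = 0.0415). In IMDP against DP its log2 fold change was -0.75 (limma adjusted p = 0.0592). In imatinib against vehicle it was -0.53 (limma adjusted p = 0.0549). The latter passed after shifting libraries to a common median (-0.49, limma adjusted p = 0.0468) and with limma-voom (adjusted p = 0.0480). Of 12 tested kinases and adaptors near integrins, the Src-family kinase gene Lyn fell by 0.53 and the GTPase gene Rac1 by 0.49 in IMDP against IMSP (limma adjusted p = 0.0240 and 0.0498), and the other 10 did not pass. With every library shifted to a common median, none of these falls in G0M+ against G0M- or IMDP against IMSP passed. The smallest of their limma adjusted p-values was 0.139.

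Of 13 tested genes that build or sulfate the sugars of selectin ligands, only B4galt1, a galactosyltransferase gene, passed. It fell by 0.43 in G0M+ against G0M- and by 0.75 in IMDP against IMSP (limma adjusted p = 0.0396 and 0.0181). After shifting to a common median these values were -0.27 and -0.48 and did not pass (limma adjusted p = 0.0994 and 0.0641).

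Of the 14 tested selectins and integrin ligands, Vcam1 and Lama5 rose both in G0M+ against G0M- and in IMDP against IMSP, and Icam2 fell in the latter. Lama5, a laminin chain gene, had 2.96 to 8.40 RPKM in DP, 0.947 to 2.98 in SP, 2.04 to 4.25 in IMDP and 0.255 to 1.29 in IMSP (log2 fold change 1.92 in G0M+ against G0M-, limma adjusted p = 0.00597). Its log2 fold change for IMDP over IMSP was 2.04 (limma adjusted p = 0.0214). Vcam1, the ligand gene of VLA-4, was at 0.301 to 3.18 RPKM in DP, 0.0437 to 1.34 in SP, 1.35 to 3.50 in IMDP and 0 to 0.306 in IMSP (log2 fold change 2.62, limma adjusted p = 0.0142), and its log2 fold change for IMDP over IMSP was 3.58 (limma adjusted p = 0.0173) with 0 to 14 reads in the IMSP libraries. Both Vcam1 calls were lost with limma-voom (adjusted p = 0.0525 and 0.104). Icam2 fell by 0.67 in IMDP against IMSP (limma adjusted p = 0.0446), a call that was lost after shifting to a common median (limma adjusted p = 0.179) and with limma-voom (adjusted p = 0.0543).

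Icam1, Fn1 and Selp, ligand and selectin genes, passed in no contrast without a block. Icam1, a ligand gene of LFA-1 and Mac-1, had 9.35 to 21.3 RPKM in DP, 4.48 to 12.2 in SP, 7.58 to 8.20 in IMDP and 5.09 to 10.0 in IMSP. Fn1, the fibronectin gene, had 1.02 to 13.4 RPKM in the vehicle libraries and 0.0420 to 9.70 in the imatinib libraries. Selp, the P-selectin gene, ranged from 2.95 to 19.2 RPKM. With neighbouring libraries as a block, all 3 passed in G0M+ against G0M- (limma adjusted p = 0.0221 for Icam1, 0.0305 for Fn1 and 0.0201 for Selp), Icam1 and Selp as higher and Fn1 as lower, and Icam1 also passed in DP against SP (limma adjusted p = 0.0492). Of all genes, 46.9% and 9.73% passed in these contrasts with that block.

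Of 17 other tested adhesion and homing receptors, 2 rose and 1 fell in G0M+ against G0M-. Cdh1, which encodes E-cadherin, rose by 2.84 (limma adjusted p = 0.0203) from low levels. It reached 1 RPKM only in G0M+ libraries, so the filter admitted it through the group where it was high. It had 0.606 to 4.64 RPKM in DP against 0.0219 to 0.452 in SP, and 0.0799 to 3.96 in IMDP against 0 to 0.116 in IMSP, where the groups overlapped. This call was lost with limma-voom (adjusted p = 0.135). Cd82, a tetraspanin gene, rose by 0.42 (limma adjusted p = 0.0309), with 4.73 to 5.01 RPKM in DP and 3.55 to 4.04 in SP. Its ranges in IMDP (5.48 to 7.80 RPKM) and IMSP (3.79 to 5.72) overlapped. Cd44, a hyaluronan receptor gene, fell by 0.31 (limma adjusted p = 0.0427). In IMDP against IMSP, Cd44 and the sialomucin gene Cd164 both fell by 0.54 (limma adjusted p = 0.020 and 0.0368). None of the Cd44 and Cd164 falls passed after shifting to a common median (limma adjusted p = 0.274 and 0.213 for Cd44 and 0.190 for Cd164).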

How the data were processed

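RNA-seq libraries of 100 sorted cells were made by the authors with not-so-random primers and a Nextera XT kit, which does not mark strand. Reads were mapped to GRCm38/mm10 with CLC Genomics Workbench according to the methods. The authors' reporting summary lists HISAT2 with featureCounts instead, and edgeR for their statistics. The authors deposited RPKM values per feature and library. Whole reads (tolerance 0.02) were recovered from the RPKM steps for 17735 of 17735 features above 0 and gave the total reads per library. These reads served depth and limma-voom only. Numbered copies were summed and positions came from GENCODE M21 (GRCm38). In that annotation Gm49368 overlaps Itgam on the same strand, Cerkl overlaps Itga4 on the opposite strand, Mir6963 lies within Itga5, Gm13663 and Gm13662 overlap Itga6 on the same strand and Gm17250 and Gm13739 on the opposite strand, and reads shared with these genes could not be separated.

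The 10072 genes that reached 1 RPKM in 3 or more libraries were fitted with limma 3.58.1 in R 4.3.3 on log2(RPKM + 0.1), with 4 group means shared across all 12 libraries, a variance trend and Benjamini-Hochberg adjusted p-values (threshold 0.05), two-sided. Fold changes are on that scale and understate changes of low genes. The scripts were tested on simulated data. The genes, lists and tests were chosen with earlier results of these data known. The genes named are all 9 members, per list and contrast up to 4 genes past the threshold with the smallest adjusted p, and fixed ligands (Vcam1, Icam1, Fn1), Selp and sort checks. A further gene of this rule is not reported here.

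Whether replicate numbers pair libraries was checked by correlating deviations from the group means. Same-numbered libraries correlated in IMDP and IMSP (0.43, 0.65 and 0.46), which are also neighbours by library number in the sample descriptions, but not in DP and SP (-0.19, -0.30 and -0.10), where neighbours did (0.51, 0.52 and 0.50). Same-numbered IMDP and DP libraries gave 0.20, 0.09 and 0.10, and IMSP and SP libraries -0.23, -0.40 and -0.26. Alternatives changed the pseudocount (1), the filter, the groups in the fit, the blocks, the scaling and the tool, or left out libraries. Tables were made with pandas 2.3.3 and figures with matplotlib 3.10.9.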

Additional observations from a re-analysis of the deposited data

Results flagged for a closer look

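Itgb1 levels lay in opposite orders between the populations of the 2 treatments. Each of the 3 DP libraries lay above each SP library and each of the 3 IMDP libraries below each IMSP library, and the difference between the log2 fold changes was -0.42 (SE 0.17, unadjusted p = 0.0294, limma adjusted p = 0.534). Set against the all-gene medians, DP over SP came to 0.15, IMDP over IMSP to -0.03 and their difference to -0.18. The difference did not pass the threshold, and no explanation was tested.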

How the results depend on the processing

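The 9 genes were recomputed in 1206 combinations of contrast and alternative setting. No call changed direction, and 81 values that were never called changed sign. With neighbouring libraries as a block, the number of the 9 genes called went from 0 to 1 in DP against SP, from 0 to 4 in IMDP against IMSP and from 1 to 2 in G0M+ against G0M-. The replicate block, which pairs libraries by the number in their title, left Itgb2 called in G0M+ against G0M- (adjusted p = 0.0307) and changed none of the 7 counts. Leaving out each library in turn gave counts of 0 to 1 in IMDP against IMSP and in G0M+ against G0M-, and 0 in the other 5 contrasts. Over its 19 alternatives, Itgb2 kept its direction and was called in 15, with adjusted p-values of 0.00452 to 0.0669. Leaving out both replicate 2 libraries of the imatinib groups, an alternative chosen after seeing the data, gave 0.81 (adjusted p = 0.0250). A common median for all libraries gave 0.93 (adjusted p = 0.0106). Over all genes, that scaling moved IMDP against IMSP from 239 higher and 2342 lower to 647 and 940, and G0M+ against G0M- from 536 higher and 2112 lower to 1131 and 1248. IMDP against DP went from 37 calls to 2, and to 8 with limma-voom. Of 721 recomputed values of the 37 other calls among the named genes, 515 kept the call and 206 lost it. Precision depended on the block. In DP against SP the SE of Itgam was 0.67 without it and 0.24 with neighbouring libraries as a block, and that of Itgb3 was 0.88 and 0.33.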
